A study of Homo sapiens with 6 samples.

Results

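The genes that write, maintain and remove DNA methylation, together with the core of Polycomb repressive complex 2 (PRC2), were compared between GDPD5-knockdown and control HCT116 cells. The 10 members, chosen by name, were the DNA methyltransferase genes DNMT1, DNMT3A and DNMT3B, the methylation cofactor genes UHRF1 and HELLS, the oxidase genes TET2 and TET3, and the PRC2 core genes EZH2, SUZ12 and EED. All 10 were found among 79302 genes of the deposited table, and all 10 passed the filter on low counts that left 16755 genes for testing. HCT116 is a human colorectal cancer line with wild-type p53, and the libraries came from a radioresistant derivative of it, obtained by 25 rounds of 4 Gy irradiation. Both groups were irradiated again with 4 Gy and collected 6 h later. The sample titles give the shRNA and a replicate number but do not name the line. The rest comes from the paper, and whether the derivative is a single clone is not given there. The shCtrl group (3 libraries) carried a control shRNA and the shGDPD5 group (3 libraries) an shRNA against GDPD5, a glycerophosphodiesterase gene. Which of the GDPD5 shRNAs listed in the methods was sequenced, and whether the replicates were separate cultures, is not stated, so the p-values cover no more than the spread between these libraries, and that spread may be technical.

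DNA methylation is copied after replication. UHRF1 binds hemimethylated CpG sites and recruits DNMT1, the maintenance methyltransferase, while HELLS is a chromatin remodeller that opens nucleosomal DNA for methylation. DNMT3A and DNMT3B place new methyl groups, and the TET enzymes oxidize 5-methylcytosine as a first step of its removal. PRC2 methylates histone H3 at lysine 27 through its catalytic subunit EZH2, which needs SUZ12 and EED for activity. HCT116 is a common model for this machinery, in which DNMT1 and DNMT3B are known to act together in keeping methylation.

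The libraries held 17602414 to 18076773 counts in the shCtrl group and 16715532 to 18510748 in the shGDPD5 group. Replicates differed by more than sampling noise (chi-square per degree of freedom from 1.65 to 7.28), and the highest values, 6.25 and 7.28, involved shCtrl replicate 1. GDPD5 mRNA, the targeted transcript, was 8.33, 11.6 and 9.75 CPM (counts scaled to library size) in shCtrl and 5.44, 5.55 and 5.19 CPM in shGDPD5, so the log2 fold change (log2FC) was -0.88 ± 0.13 (SE; adjusted p = 0.000117, edgeR). Of 9 epithelial markers, 7 were tested, of which KRT20 rose and 6, EPCAM and CDH1 among them, fell (adjusted p under 0.05 by edgeR), and the summed level of the list was 3174 to 3614 CPM in shCtrl and 2529 to 2637 CPM in shGDPD5. VIL1 and LGALS4, which mark intestinal epithelium, had at most 10 and 3 counts in a library. Of 6 fibroblast markers, COL1A2, DCN and LUM were at 0 in every library, COL3A1 and PDGFRB had up to 6 counts, and COL1A1 had 323 to 417 (log2FC 0.11, adjusted p = 0.243, edgeR). Their summed level was 19.04 to 21.6 CPM in shCtrl and 20.7 to 24.2 CPM in shGDPD5. Of 6 immune markers, CD3E and MS4A1 were at 0, PTPRC, CD14 and LYZ had up to 2, 3 and 13 counts, and CD68 fell (log2FC -1.63), with a summed level of 7.05 to 11.6 CPM in shCtrl and 3.15 to 3.39 CPM in shGDPD5. Of 3 endothelial markers, CDH5 was at 0, PECAM1 had up to 1 count and VWF 4 to 8, with summed levels of 0.282 to 0.404 and 0.338 to 0.468 CPM, and the part of these markers in the members' values was not tested.

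In the shGDPD5 libraries UHRF1, DNMT1 and HELLS rose, DNMT3A and DNMT3B did not, and the TET and PRC2 genes rose by less. At an adjusted p under 0.05 from the quasi-likelihood test of edgeR, 8 members were higher and 1, DNMT3B, was lower, while DNMT3A did not pass. Over all genes tested, 59.7% were called at this threshold, 29.7% higher and 30.1% lower. The median log2 fold change was 0.45 over the 10 members and 0.01 over all genes tested. When a raw p under 0.05 and a log2FC of 1 or more in either direction were both required, 3 members passed (UHRF1, DNMT1 and HELLS), against 12.0% of all genes. The libraries of the groups did not overlap for 9 members, and did not for 64.9% of all genes. Without shCtrl replicate 1, the library that stood apart, 8 members were again called higher and 1 lower, with log2FC values of 1.24 for DNMT1, 1.17 for UHRF1, 1.61 for HELLS, 0.77 for EZH2 and -0.68 for DNMT3B.

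**Figure D1:**
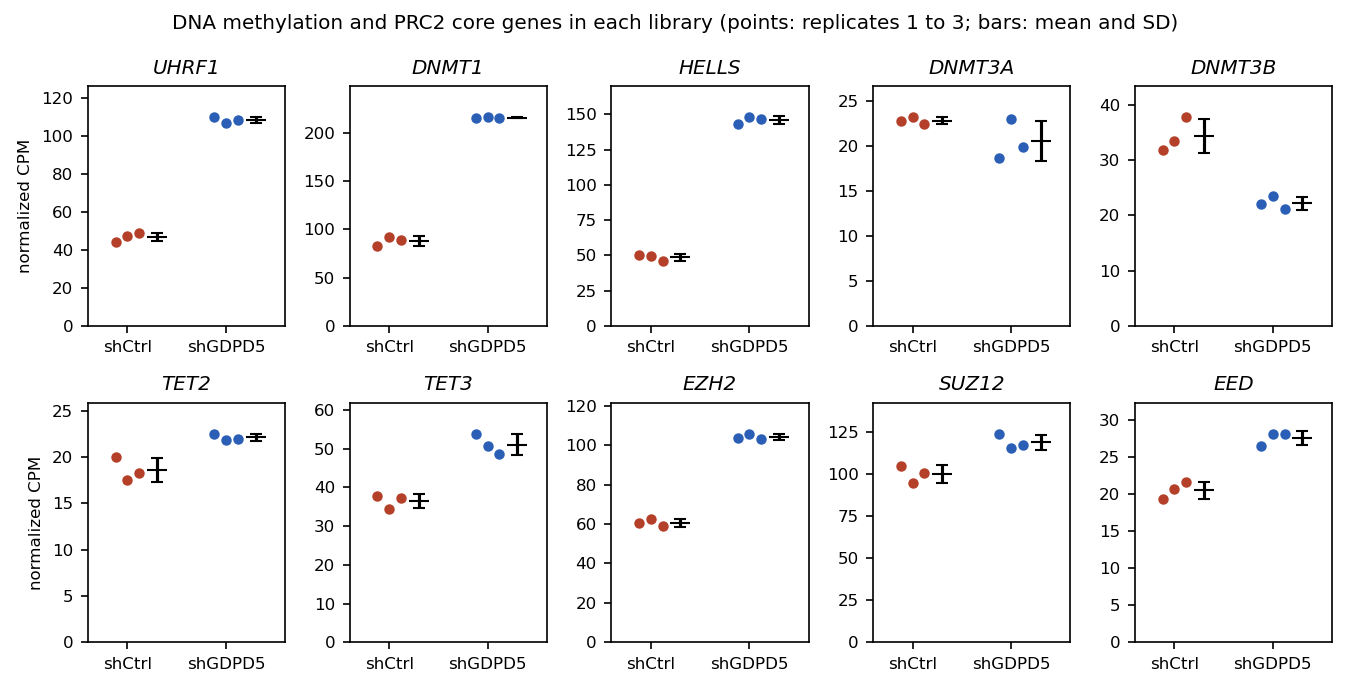
Normalized CPM (y axes, each from 0) of the 10 genes in 3 shCtrl (red) and 3 shGDPD5 (blue) libraries, with points in the order of the replicate numbers and black marks for the mean and SD. UHRF1, DNMT1 and HELLS sit more than 2.3-fold higher in shGDPD5, DNMT3B sits lower, and DNMT3A overlaps between the groups.

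UHRF1 (ENSG00000276043), the reader that couples replication to methylation, lies on chromosome 19, plus strand, 4903080 to 4962154 (GENCODE release 29, GRCh38). Its level was 44.5, 47.3 and 49.0 CPM in shCtrl and 110.0, 107 and 108 CPM in shGDPD5. Every shGDPD5 library was thus above every shCtrl library, and the gap was far wider than the range within either group. The fold was 2.31 (log2FC 1.21 ± 0.05 SE, adjusted p = 1.81e-09, edgeR), and 3.57% of the tested genes had a larger log2FC.

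DNMT1 (ENSG00000130816), the methyltransferase that UHRF1 recruits, lies on chromosome 19, minus strand, 10133345 to 10231286. It had 82.5, 92.7 and 89.4 CPM in shCtrl and 215, 216 and 215 CPM in shGDPD5. The shGDPD5 libraries were nearly level with each other, with an SD of 0.569 CPM against 5.21 CPM in shCtrl. The fold was 2.45 (log2FC 1.29 ± 0.05 SE, adjusted p = 8.36e-10, edgeR). The gene overlaps S1PR2 on the same strand, which held 106 to 153 counts in a library against 1416 to 4053 for DNMT1.

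HELLS (ENSG00000119969), the remodeller, lies on chromosome 10, plus strand, 94501434 to 94613905. It rose the most of the 10, from 50.2, 49.5 and 45.8 CPM in shCtrl to 142.9, 148 and 147 CPM in shGDPD5. No library of a group came near those of the other. The fold was 3.01 (log2FC 1.59 ± 0.05 SE, adjusted p = 1.72e-10, edgeR), and 1.46% of all tested genes had a larger log2FC. The annotated gene overlaps TBC1D12 on the same strand, with 287 to 382 counts in a library against 794 to 2770 for HELLS.

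DNMT3A and DNMT3B, the de novo enzymes, did not follow. DNMT3B (ENSG00000088305, chromosome 20, plus strand, 32762385 to 32809356) had 31.9, 33.4 and 37.8 CPM in shCtrl and 22.0, 23.5 and 21.1 CPM in shGDPD5. Every shGDPD5 library was below every shCtrl library, and 64.7% of the control level was left. The log2FC was -0.63 ± 0.08 (SE; adjusted p = 1.84e-05, edgeR), and the gene was the only one of the 10 that fell. DNMT3A (ENSG00000119772, chromosome 2, minus strand, 25227855 to 25342590) had 22.7, 23.1 and 22.4 CPM in shCtrl and 18.6, 23.0 and 19.8 CPM in shGDPD5. Here shGDPD5 replicate 2 lay among the control libraries while replicates 1 and 3 lay below them. The log2FC was -0.15 with a 95% interval from -0.33 to 0.03 (adjusted p = 0.147 by edgeR). Without shGDPD5 replicate 2 it was -0.25 and passed (adjusted p = 0.0238 by edgeR).

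TET3 and TET2, which start the removal of methylation, rose modestly. TET3 (ENSG00000187605, chromosome 2, plus strand, 73986404 to 74108176) had 37.9, 34.5 and 37.3 CPM in shCtrl and 53.8, 50.8 and 48.5 CPM in shGDPD5, a fold of 1.40 (log2FC 0.48 ± 0.06 SE, adjusted p = 2.92e-05, edgeR). TET2 (ENSG00000168769, chromosome 4, plus strand, 105145875 to 105279816) had 20.0, 17.5 and 18.3 CPM in shCtrl and 22.5, 21.9 and 21.9 CPM in shGDPD5, a fold of 1.19 (log2FC 0.25 ± 0.07 SE, adjusted p = 0.0117, edgeR). The groups did not overlap for either gene, although the gap was small for TET2, whose call was lost without shCtrl replicate 2 (log2FC 0.20, adjusted p = 0.0654 by edgeR). TET2-AS1, on the other strand, was at 0 counts in every library. TET1, the other member of the family, had a log2FC of 0.04 (adjusted p = 0.853 by edgeR) with at most 63 counts in a library.

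All 3 PRC2 core genes rose, and the catalytic subunit had the largest log2FC of them. EZH2 (ENSG00000106462, chromosome 7, minus strand, 148807383 to 148884321) had 60.3, 62.5 and 58.8 CPM in shCtrl and 103.5, 106 and 103 CPM in shGDPD5. The groups lay far apart, with a fold of 1.72 (log2FC 0.78 ± 0.05 SE, adjusted p = 4.44e-08, edgeR). EED (ENSG00000074266, chromosome 11, plus strand, 86244544 to 86278813), which reads the mark that EZH2 writes, had 19.3, 20.7 and 21.6 CPM in shCtrl and 26.5, 28.1 and 28.1 CPM in shGDPD5 (fold 1.34, log2FC 0.43 ± 0.07 SE, adjusted p = 0.000193, edgeR). SUZ12 (ENSG00000178691, chromosome 17, plus strand, 31937018 to 32001045), the scaffold of the complex, had 105, 94.6 and 101 CPM in shCtrl and 124, 116 and 117 CPM in shGDPD5 (fold 1.19, log2FC 0.25 ± 0.05 SE, adjusted p = 0.00155, edgeR). Neither gene overlapped between the groups, and the 95% interval of EZH2 (0.67 to 0.89) lay above those of EED (0.27 to 0.58) and SUZ12 (0.13 to 0.37). The difference between the folds of these genes was not tested. SUZ12 has the pseudogene SUZ12P1, with 36 to 63 counts in a library against 1677 to 2169 for SUZ12, and the pseudogene EZH2P1 was at 0.

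**Figure D2:**
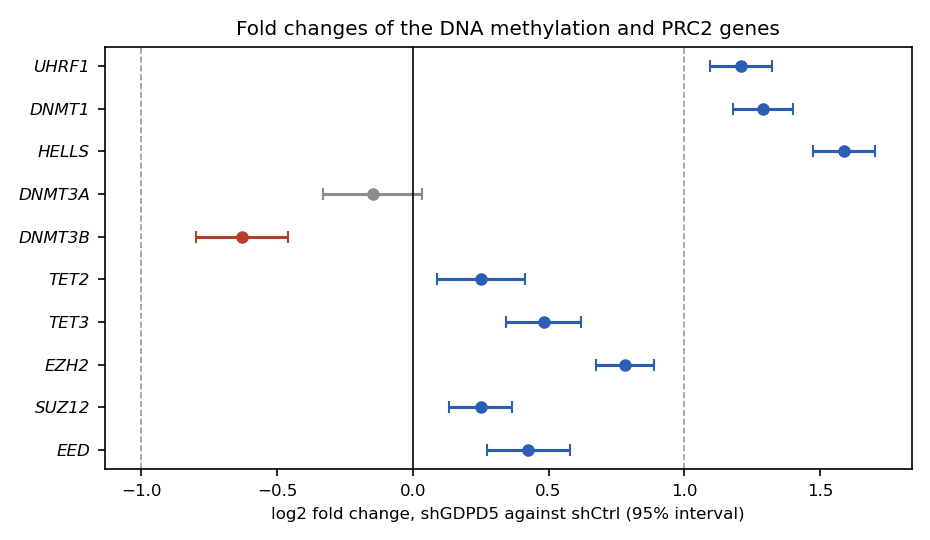
The log2FC of each gene in shGDPD5 relative to shCtrl (x axis), with its 95% interval, blue where higher, red where lower and grey where the adjusted p was not under 0.05. Dashed lines mark a log2FC of 1 in either direction, which UHRF1 (1.21), DNMT1 (1.29) and HELLS (1.59) passed.

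The 5 members that hold an E2F-like word at a RefSeq start were UHRF1, DNMT1, HELLS, EZH2 and SUZ12. All 5 rose, but so did 8 of the 10 members, so this overlap tells little. E2F factors are known to drive genes of DNA synthesis at such words. The words searched, on both strands, were TTTGGCGC, TTTCCCGC, TTTGCCGC and TTTCGCGC, in windows of 300 bases from 250 before to 50 after each start in the RefSeq table on GRCh38.p14, which held 20 starts of the 10 genes. A word was present at 50.0% of the member genes, 6.57% of the 11291 tested genes found in that table, 3.99% of all its genes and 57.9% of the 19 S-phase genes found there. Counted by start, the share was 30.0% for the members and 4.85% for the tested genes. TET2, TET3 and EED, which also rose, held none at their listed starts. Neither did DNMT3A, nor the single start listed for DNMT3B. The listed starts of DNMT3B, UHRF1, DNMT1 and HELLS lie inside the genes as GENCODE draws them, so these windows say nothing of the outermost annotated starts. Those of EED and EZH2 also lie inside. The EED window begins at 86244503 and the gene at 86244544, so it covers little before that outermost start. The window of the first EZH2 start reaches further, to 148884541, past the gene end at 148884321. The members were chosen with results known, a match of letters does not show binding, and the part of these words in the levels was not tested. The 4 promoters of the members that rose the most are shown because they carry such a word (UHRF1 and EZH2 at the first listed start). They are printed 5′ to 3′ as 280 bases in lower case, from 250 bases before the start, with each E2F-like word in capitals.
UHRF1, first of 3 listed starts, chr19:4909251-4909530, plus strand: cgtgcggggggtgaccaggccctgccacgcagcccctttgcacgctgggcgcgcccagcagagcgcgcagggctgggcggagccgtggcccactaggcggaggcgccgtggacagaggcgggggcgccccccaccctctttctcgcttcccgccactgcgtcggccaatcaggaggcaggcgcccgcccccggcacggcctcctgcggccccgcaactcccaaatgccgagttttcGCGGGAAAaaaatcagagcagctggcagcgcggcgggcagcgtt
DNMT1, chr19:10194924-10195203, minus strand: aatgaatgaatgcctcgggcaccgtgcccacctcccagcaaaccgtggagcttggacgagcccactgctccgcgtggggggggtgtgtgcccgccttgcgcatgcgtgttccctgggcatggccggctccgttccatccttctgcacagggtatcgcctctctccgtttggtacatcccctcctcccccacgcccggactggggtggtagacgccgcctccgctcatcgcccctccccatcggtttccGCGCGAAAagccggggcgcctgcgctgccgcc
HELLS, chr10:94545538-94545817, plus strand: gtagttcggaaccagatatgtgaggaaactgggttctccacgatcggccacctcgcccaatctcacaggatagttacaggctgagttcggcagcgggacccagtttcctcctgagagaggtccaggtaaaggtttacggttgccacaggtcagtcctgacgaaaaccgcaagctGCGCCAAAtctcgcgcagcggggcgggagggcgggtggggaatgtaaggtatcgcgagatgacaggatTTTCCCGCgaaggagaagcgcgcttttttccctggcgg
EZH2, first of 2 listed starts, chr7:148884262-148884541, minus strand: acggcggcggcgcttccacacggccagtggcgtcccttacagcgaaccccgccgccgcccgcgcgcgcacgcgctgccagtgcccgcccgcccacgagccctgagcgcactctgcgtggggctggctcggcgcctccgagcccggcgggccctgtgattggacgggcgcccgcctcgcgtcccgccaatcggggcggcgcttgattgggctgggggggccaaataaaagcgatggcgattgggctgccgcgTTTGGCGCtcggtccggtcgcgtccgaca

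In UHRF1 the word began 14 bases before the first start, and another, TTTCGCGC, began 160 bases before the second start (not printed). In DNMT1 it began 2 bases before the start. HELLS held a word on each strand, 76 and 8 bases before the start. In EZH2 it began 1 base after the start, downstream of a stretch with CCAAT on either strand. CCAAT, a common promoter word, was found on either strand at 70.0% of the member genes and 43.0% of the tested genes with a listed start. Counted by start, these shares were closer, at 40.0% and 34.7%. The cell cycle word TTTGAA was found at 30.0% of the member genes, 13.5% of the tested genes and 5.26% of the S-phase genes with a listed start. The member and tested shares were again closer when counted by start. The members with this word were DNMT3A, which was not called, and TET2 and SUZ12, which rose the least of those called higher. UHRF1, DNMT1, HELLS and EZH2 held none at their listed starts. The E2F-like word of SUZ12 began 189 bases before the start. The 20 windows of the members held a median of 31.5 CpG sites, against 25 for the listed windows of tested genes and 31 for those of the S-phase genes. Their median GC content was 74.2%, 64.7% and 67.5%, in the same order.

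Levels of different genes can be compared only after scaling by length, here as CPM per kilobase of annotated exon. In shCtrl the order of the mean levels was SUZ12 (22.3), EZH2 (19.8), DNMT1 (16.2), HELLS (14.5), UHRF1 (9.12), DNMT3B (7.42), EED (5.66), TET3 (3.18), DNMT3A (2.12) and TET2 (1.18), and no neighbours in this order overlapped between libraries. In shGDPD5 it was HELLS (43.7), DNMT1 (39.5), EZH2 (34.0), SUZ12 (26.5), UHRF1 (21.1), EED (7.60), DNMT3B (4.80), TET3 (4.45), DNMT3A (1.91) and TET2 (1.41), and only DNMT3B and TET3 overlapped. HELLS moved from the fourth place to the first, and SUZ12 from the first to the fourth. These places depend on the exon lengths used: without length scaling, the mean ratio of HELLS to DNMT1 in shGDPD5 was 0.677 in place of 1.11.

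The balance of the methyltransferases shifted towards DNMT1. It made up 62.7%, 64.4% and 61.5% of the summed level of the 3 genes per kilobase in shCtrl and 85.9%, 84.6% and 86.0% in shGDPD5. The share of DNMT3B was 28.9% ± 1.65 (SD, n = 3) in shCtrl and 10.4% ± 0.446 (SD, n = 3) in shGDPD5. The ratio of DNMT1 to DNMT3B was 2.19 ± 0.173 in shCtrl and 8.26 ± 0.424 in shGDPD5 (SD, n = 3 each). These shares follow from the folds of the single genes and carry no test of their own.

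UHRF1 and DNMT1 kept nearly the same ratio to each other, 0.572, 0.541 and 0.582 in shCtrl and 0.542, 0.524 and 0.534 in shGDPD5, and the libraries of the groups overlapped. The summed level of TET2 and TET3 relative to DNMT1 was 0.302, 0.242 and 0.269 in shCtrl and 0.155, 0.147 and 0.142 in shGDPD5. So although both TET genes rose, they fell behind DNMT1 in every shGDPD5 library. EZH2 relative to SUZ12 went from 0.842, 0.969 and 0.855 in shCtrl to 1.22, 1.34 and 1.29 in shGDPD5, so that its level passed that of SUZ12 per kilobase. Without length scaling it did not, with mean ratios of 0.606 in shCtrl and 0.874 in shGDPD5. EZH1, the paralogue of EZH2, also rose (log2FC 0.57, adjusted p = 8.27e-06 by edgeR), and the ratio of EZH2 to EZH1 was 2.73 ± 0.0787 in shCtrl and 3.16 ± 0.124 in shGDPD5 (SD, n = 3 each).

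**Figure D3:**
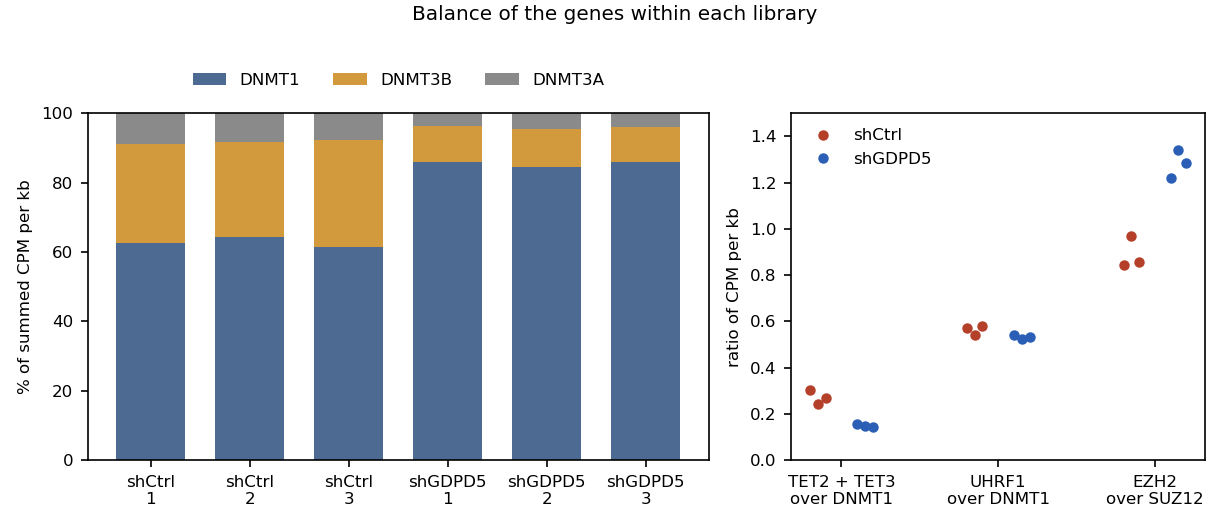
Left, share of DNMT1, DNMT3B and DNMT3A in their summed CPM per kilobase (y axis, percent) in each library. Right, ratios of CPM per kilobase (y axis) in shCtrl (red) and shGDPD5 (blue) libraries. DNMT1 takes 61.5% to 64.4% of the sum in shCtrl and 84.6% to 86.0% in shGDPD5, and the ratio of UHRF1 to DNMT1 overlaps between the groups.

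Replication genes rose beside UHRF1, DNMT1 and HELLS. Of 22 S-phase genes, 22 were called higher by edgeR, against 29.7% of all genes tested, with a median log2FC of 1.59. Their summed level was 919.6 to 945 CPM in shCtrl and 2613 to 2642 CPM in shGDPD5. TYMS and TK1, which supply thymidylate, RRM1, a ribonucleotide reductase subunit, and PCNA, the sliding clamp that also binds DNMT1, had log2FC values of 2.07, 2.19, 1.96 and 1.86. TYMS and PCNA have annotated pseudogenes. Relative to PCNA, per kilobase, the level of DNMT1 was 0.330 ± 0.0323 in shCtrl and 0.222 ± 0.0055 in shGDPD5, that of UHRF1 0.186 ± 0.016 and 0.118 ± 0.0043, and that of EZH2 0.403 ± 0.0226 and 0.191 ± 0.0027 (SD, n = 3 each). DNMT1, UHRF1 and EZH2 thus rose less than PCNA in the same libraries. HELLS came closest to PCNA, at 0.296 ± 0.013 and 0.245 ± 0.0072. PCNA itself rose more than the median of the S-phase list, and HELLS, with a log2FC of 1.59, lay at that median. What part a change in the share of cells in S phase had in the members' levels was not tested, and in bulk RNA more cells of a kind and more RNA per cell cannot be told apart.

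Other genes of DNA methylation changed little and in both directions. Of 18 readers, partners and further writers, 15 were tested, with a median log2FC of 0.03. Of these, 5 were called higher and 2 lower by edgeR at the same threshold, against 29.7% and 30.1% over all genes. MBD3, a subunit of a deacetylase complex, TDG, the glycosylase that excises oxidized methylcytosine, and MBD1, a methyl-CpG reader, rose by 0.49, 0.32 and 0.26 on the log2 scale, while ZBTB4, a zinc finger reader of methylated DNA, fell by 0.36. UHRF2, the paralogue of UHRF1, had a log2FC of -0.03 (adjusted p = 0.727 by edgeR). DNMT3L, the inactive cofactor of the de novo enzymes, was at 0 counts in every library. The 2 genes called lower were 1 without shGDPD5 replicate 3. TET1 and UHRF2 were named after their values were seen, and TDG, TET1 and UHRF2 each have 1 named pseudogene.

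The enzymes that supply the methyl donor S-adenosylmethionine also moved both ways. Of 10 listed, 8 were tested, 2 were higher and 3 lower, near the 29.7% higher and 30.1% lower over all genes. AHCY, which clears the inhibitory product of methylation, and MAT2B, the regulatory subunit of the synthetase, rose (log2FC 0.54 and 0.49). MTRR, which reactivates methionine synthase, and AHCYL1 had log2FC values of -0.97 and -0.26. MAT2A, the catalytic subunit of the synthetase, fell from a mean of 483 to 407 CPM (log2FC -0.25, adjusted p = 0.000451 by edgeR). MAT2A was named after its values were seen. Reads of AHCY could be shared with its 6 named pseudogenes. Of 9 genes that set the supply of 2-oxoglutarate or its competitors for TET enzymes, 4 were higher and 1 lower. These counts are to be read beside the same shares over all genes. IDH1, which makes 2-oxoglutarate in the cytosol, fell by 1.12 on the log2 scale (1 gene called lower, 2 without shCtrl replicate 1 or with single-gene tests). SDHA, FH and SDHB, which consume succinate or fumarate, rose by 0.96, 0.65 and 0.20. SDHA and FH have 3 and 1 named pseudogenes, so their counts are less certain.

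Further PRC2 subunits moved mostly with the core. Of 11 listed, 10 were tested, with a median log2FC of 0.31. Of these, 7 were higher and 2 lower (1 lower with single-gene tests), against 29.7% and 30.1% over all genes. The histone chaperone subunit RBBP7 and the accessory subunit PHF19, a reader of H3K36 methylation, rose (log2FC 0.90 and 1.07), whereas JARID2, which helps to recruit the complex, fell by 0.76. EZHIP, a PRC2 inhibitor, was at 0 counts in every library. KDM6B, a demethylase of the PRC2 mark, fell by 0.58, and its relative KDM6A had a log2FC of -0.03 (adjusted p = 0.765 by edgeR).

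PRC1, the Polycomb complex that ubiquitinates histone H2A, leaned the other way. Of 21 subunits tested, 5 were higher and 11 lower, with a median log2FC of -0.26, against 29.7% higher and 30.1% lower over all genes. PCGF5 fell by 0.62 on the log2 scale, and CBX2, a chromodomain subunit, and PCGF3 rose by 1.31 and 0.59. Genes of H3K9 methylation, the mark that UHRF1 also reads, counted 8 higher and 3 lower of 14. SUV39H1, a methyltransferase of that mark, CBX1 and CBX3, its HP1 readers, and EHMT2, another methyltransferase of it, rose, with log2FC values of 1.62, 1.19, 0.55 and 0.63, and KDM4A fell by 0.17. The count lower was 1 without shGDPD5 replicate 1, 1 without shGDPD5 replicate 3 and 1 with DESeq2. CBX1 and CBX3 have 5 and 9 named pseudogenes, so their counts are less certain. Among 16 trithorax and SWI/SNF genes, known to oppose Polycomb, 10 were higher and 1, DPY30 (-0.51), was lower, or 2 without shCtrl replicate 3. KMT2B, MEN1 and KMT2D rose by 0.51, 0.48 and 0.39.

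**Figure D4:**
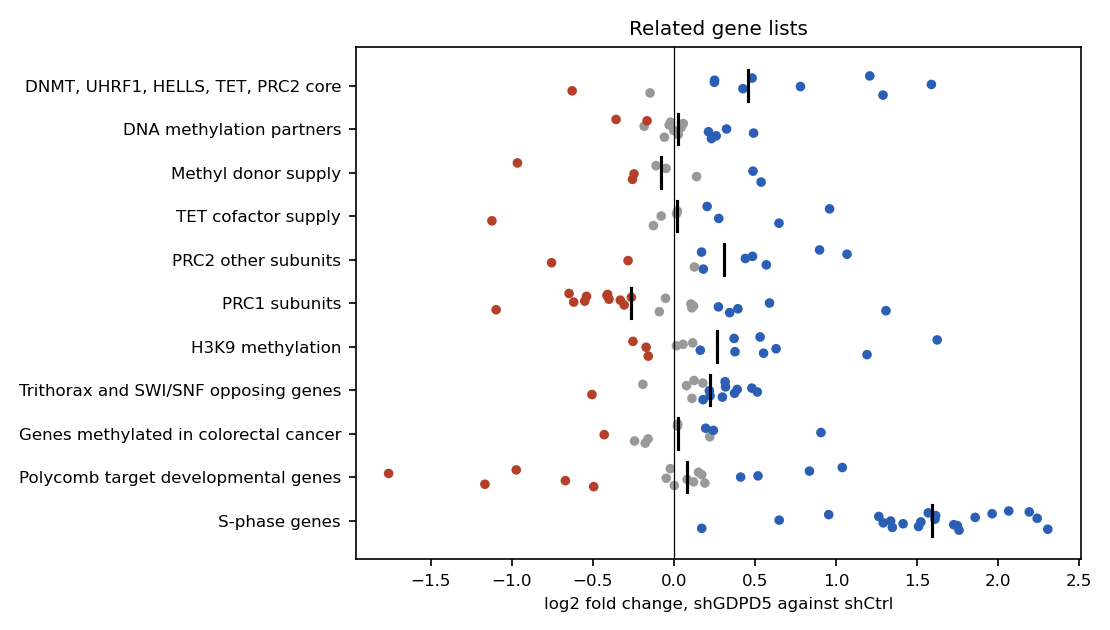
The tested genes of each list (y axis) by their log2FC in shGDPD5 relative to shCtrl (x axis). Points are genes, blue where higher, red where lower and grey where the adjusted p from edgeR was not under 0.05, with a black line at the median. The S-phase list has its median at 1.59, the 10 genes of methylation and PRC2 at 0.45 and the PRC1 list at -0.26.

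The genes whose pattern over the 6 libraries lay nearest to each member were taken by the root mean square distance of log2 CPM, centred on the shCtrl mean, over 11083 genes with a mean of at least 5 CPM. For UHRF1 these were NCAPD2 (distance 0.0203, log2FC 1.20) and CLN8 (0.0304, log2FC 1.24). For DNMT1 they were FAM219A (0.0340) and CBX2 (0.0526), and for HELLS they were HCN3 (0.0412) and CCDC150 (0.0485). EZH2 had RFWD3 (0.0222) and PLCG1 (0.0237), and DNMT3B had ITGA5 (0.0226) and HIVEP3 (0.0326). The pair of TET3 was E2F3 (0.0291) and SNX4 (0.0355), that of TET2 was SDHD (0.0167) and TSNAX (0.0168), that of EED was DDX39B (0.0159) and SAE1 (0.0179), and that of SUZ12 was CTH (0.0119) and RASSF1 (0.0205). The 6 libraries form only 2 groups, so a small distance mostly states a like fold.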

How the data were processed

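The 6 HCT116 libraries, 3 shCtrl and 3 shGDPD5, were grouped by their titles. The authors deposited a table of estimated counts per gene, which need not be whole numbers, made by a sequencing company. How reads were aligned and counted, with which build and strand setting, is not given in the sources used here. Counts were rounded, filtered with filterByExpr (minimum count of 10), normalized by TMM and fitted with the quasi-likelihood model of edgeR 4.0.16 (R 4.3.3), comparing shGDPD5 with shCtrl without covariates. P-values of the 16755 genes kept were adjusted by Benjamini-Hochberg. Depth ran from 16715532 to 18510748 counts, which limits the precision of low genes. Lengths and positions came from GENCODE release 29 (GRCh38), with lengths as the union of exons of protein-coding transcripts. Promoter windows came from RefSeq (GRCh38.p14).

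The members and the related lists, taken from general knowledge, were chosen with earlier results of these data known. The text names all 10 members and, from every list, at most 4 called genes (those of lowest adjusted p) plus 1 called gene against the majority, as well as the nearest 2 genes of each called member. Some genes that this rule names are not reported here. Each fit was repeated with size factors by RLE or upper quartile, with DESeq2 1.42.0, with voom in limma 3.58.1, with single-gene tests of log2(CPM + 1), the kind the study used, without a filter, with at least 10 counts per library, with a replicate block, and without each library. Ratios were repeated without length scaling. A test on simulated data (16476 genes, this comparison) called 46 of 49 genes at a log2FC of -1, 48 of 50 at 1, and 8 of 16282 unchanged genes. It changed a far smaller share of genes than the 59.7% called in the deposited data, with like numbers up and down. Its genes shared a common spread and no library stood apart, so these rates need not hold for the deposited libraries.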

Additional observations from a re-analysis of the deposited data

How the results depend on the processing

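The 8 members called higher were 7 to 8 with a library left out and 8 under every other alternative. The members called lower were 1 to 2 with a library left out, since DNMT3A passed without shGDPD5 replicate 2, and 1 otherwise. The members with a raw p under 0.05 and a log2FC of 1 or more in either direction were 3 under all 14 alternatives. No member changed sign, and over the alternatives the log2 fold change ranged from 1.24 to 1.32 for DNMT1, from 1.17 to 1.24 for UHRF1, from 1.54 to 1.61 for HELLS, from 0.76 to 0.80 for EZH2, from -0.68 to -0.56 for DNMT3B and from -0.25 to -0.09 for DNMT3A. GDPD5 ranged from -0.99 to -0.75. Of 336 list counts under the alternatives, 320 stayed within 1.5 times. Leaving out length scaling multiplies a ratio of 2 genes by the same factor in both groups, so it changes levels and places but not the fold between groups. The mean in shCtrl and shGDPD5 was then 2.58 and 9.73 for DNMT1 over DNMT3B, 0.606 and 0.874 for EZH2 over SUZ12 (below 1 in both), 0.552 and 0.677 for HELLS over DNMT1 (below 1 in both), 0.628 and 0.339 for TET2 plus TET3 over DNMT1, and 1.80 and 2.08 for EZH2 over EZH1. Over PCNA it was 1.22 and 0.823 for DNMT1, 0.651 and 0.414 for UHRF1, 0.839 and 0.397 for EZH2, and 0.671 and 0.557 for HELLS.

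Same-numbered libraries did not deviate together (correlations of -0.0699, -0.0517 and -0.041), and none correlated best with its own number. The replicate block left 4789 genes higher and 4848 lower, against 4968 and 5035 without it, with 8 members higher and 1 lower. Levels of mRNA do not measure methylation of DNA or histones. Counts without use of strand, if so made, cannot tell a gene from its antisense partner.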

Other observations

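Most genes known to be silenced by promoter methylation were at or near 0 counts in both groups. Of 23 germline and cancer-testis genes, 2 were tested, and neither passed: MAGEA3 had a log2FC of -0.09 (adjusted p = 0.206 by edgeR), with up to 1518 counts in a library, and TEX19 had 0.27 (adjusted p = 0.373). Both were named after their values were seen, and MAGEA3 is nearly identical to MAGEA6, which had 2 to 7 counts, so the split of their reads is uncertain. Without shCtrl replicate 1, 1 gene of the list was called lower. Of the rest, 12 were at 0 in every library. Of 29 genes known for promoter methylation in colorectal cancer, 19 were too low to test and 10 of these were at 0 in every library, the Wnt antagonists SFRP1, SFRP2 and WIF1 among them (named after their values were seen). Of the 10 tested, 3 were higher and 1 lower, against 29.7% and 30.1% over all genes. The count lower was 3 without shCtrl replicate 1, and 2 without shGDPD5 replicate 1, with RLE size factors or without a filter. The count higher was 1 without shCtrl replicate 2, without shGDPD5 replicate 1, and with DESeq2 on all libraries. NDRG4 rose by 0.91 on the log2 scale, RASSF1 by 0.24 and RUNX3 by 0.20 (adjusted p = 4.23e-05, 0.0214 and 0.0316 by edgeR).

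Developmental genes known as PRC2 targets moved in both directions. Of 25 listed, 17 were tested, 4 were called higher and 5 lower by edgeR, with a median log2FC of 0.08. HOXD8, FOXL1 and HOXA11 had log2FC values of -1.76, -1.17 and -0.67, and TBX3, a T-box factor, rose by 1.04. The higher share was below and the lower share near those over all tested genes.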
